A study of Mus musculus with 7 samples.

Results

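The 35 genes described here carry out or time the copying of DNA in S phase: the licensing factors and the Mcm2 to Mcm7 helicase, the factors that switch the helicase on, polymerases and primase, the sliding clamp and its loader, enzymes of nucleotide supply, histone and DNA methylation partners, and the cyclins and E2F1 that open S phase. They were taken by name from the count tables of sorted mouse Paneth cells. Of the 52550 genes in the tables all 35 were found, each under 1 gene identifier, and all 35 passed the filter on low counts that left 17449 genes for testing.

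Polyadenylated RNA had been sequenced from Paneth cells sorted out of the small intestine. The mice were Lgr5-EGFP-IRES-CreERT2 on strain C57BL/6J and carry a fluorescent reporter and an inducible Cre at the stem cell gene Lgr5. In the DSS group (4 libraries) the mice received dextran sulfate sodium, which damages the intestinal lining, at 3% in drinking water over 7 days, and tissue was taken 3 days after withdrawal. DSS 1 came from a 12-week-old mouse and DSS 2, DSS 3 and DSS 4 from 10-week-old mice. In the water group (3 libraries) the mice had plain water for the same time, and water 1 and water 2 came from 12-week-old mice and water 3 from a 10-week-old mouse. Live single cells were gated on CD24, a surface protein of Paneth cells that some other crypt cells also carry, and on side scatter, after cells with markers of blood and vessels were removed. Nothing in the labels ties every library to its own mouse, and the p-values therefore describe variation among the 7 libraries, which may be technical.

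A Paneth cell is a post-mitotic secretory cell of the crypt base that stores antimicrobial granules and lives next to dividing Lgr5-positive stem cells. Replication genes work in a fixed order: Cdc6 and Cdt1 load the Mcm2 to Mcm7 ring on DNA in G1, Cdc45 and the GINS complex turn it into a moving helicase, and primase, polymerases and the Pcna clamp follow behind it. Most of these genes are transcribed late in G1 by E2F factors once cyclin-dependent kinases have released them from the retinoblastoma family. RNA of these genes is therefore used as a mark of cells that cycle or are about to. Which cells held it here was not tested.

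The promoters of several members hold the DNA letters that E2F factors bind, and the 3 with the most such sites are shown because control by E2F is the best known trait that these genes share. The sequences are from RefSeq on build GRCm38.p6, cover 250 bases before to 50 after the annotated start, and run 5′ to 3′ along the gene, with the E2F motifs in capitals. Mcm6 lies at chr1:128359656-128359955 on the minus strand, Mcm3 at chr1:20820263-20820562 on the minus strand and Mcm5 at chr8:75109259-75109558 on the plus strand.
Mcm6: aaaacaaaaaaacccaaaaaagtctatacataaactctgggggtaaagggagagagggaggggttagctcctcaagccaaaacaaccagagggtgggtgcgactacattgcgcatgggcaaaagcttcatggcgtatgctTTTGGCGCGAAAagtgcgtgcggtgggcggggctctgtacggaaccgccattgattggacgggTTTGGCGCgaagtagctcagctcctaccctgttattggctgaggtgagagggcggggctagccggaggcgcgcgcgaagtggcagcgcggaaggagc
Mcm3: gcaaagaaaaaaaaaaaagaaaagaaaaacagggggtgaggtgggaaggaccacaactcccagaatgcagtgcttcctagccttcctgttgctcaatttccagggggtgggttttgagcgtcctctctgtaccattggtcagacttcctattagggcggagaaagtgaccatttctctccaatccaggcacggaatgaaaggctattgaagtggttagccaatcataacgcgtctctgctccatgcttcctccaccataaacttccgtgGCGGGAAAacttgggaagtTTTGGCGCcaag
Mcm5: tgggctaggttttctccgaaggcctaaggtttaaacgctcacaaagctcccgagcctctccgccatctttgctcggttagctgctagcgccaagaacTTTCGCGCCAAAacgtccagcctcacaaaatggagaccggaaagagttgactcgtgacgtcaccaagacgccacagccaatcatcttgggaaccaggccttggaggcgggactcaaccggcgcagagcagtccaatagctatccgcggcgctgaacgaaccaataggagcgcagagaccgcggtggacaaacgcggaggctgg

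Mcm6 had 3 sites, of which a TTTGGCGC at position -110 and a TTTCGCGC on the other strand at -106 overlap, and the last, TTTGGCGC, starts at -47 from the start site. Mcm3 had a TTTCCCGC on the other strand at 20 and a TTTGGCGC at 39, both after the start. Mcm5 had an overlapping pair at -153 and -149. Mcm7, which also had 2 sites, is not printed, since equal counts were ordered by name.

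RefSeq promoters were at hand for 27 of the 35 members. Any of TTTCCCGC, TTTCGCGC, TTTGCCGC or TTTGGCGC, on either strand, was present in 11 of these 27 (40.7%), against 704 of 27025 genes of the table (2.6%). The 11 were Mcm3, Mcm5, Mcm6, Mcm7, Cdt1, Cdc6, Pola1, Dtl, Cdca7, Uhrf1 and Hells. Of 40 other replication genes with a promoter 14 held such a motif (35%), and of 44 genes of G2 and M phase 2 did (4.55%). The letters CCAAT, bound by NF-Y, stood on either strand in 15 of 27 member promoters (55.6%), in 35 of 44 G2 and M phase promoters (79.5%) and in 41.1% of all genes of the table. The CHR letters of late cell cycle genes, TTTGAA or TTCGAA on either strand, stood in 4 of 27 member promoters (14.8%), in 35 of 44 G2 and M phase promoters (79.5%) and in 21.7% of all genes. A match is a description of letters and shows no binding, and motifs of different kinds were counted without regard to overlap with each other.

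Each library held 23175708 to 32451653 counted reads. Values are TMM-scaled CPM, a gene's counts relative to the scaled library total, and levels of different genes are compared only as CPM per kilobase of exon. Exon length counts all annotated exons of a gene, so it can exceed the length of the transcript present. In bulk RNA, fewer cells of a type and less RNA per cell cannot be told apart. Lyz1, the lysozyme of Paneth granules, had 77960, 54480, 39040 and 40840 CPM in DSS libraries against 101600, 108200 and 99880 CPM in water libraries, so the defining marker of the labelled cell type was abundant in all 7 libraries. The 11 Paneth markers summed to 215700, 171700, 123400 and 132800 CPM in DSS libraries against 254700, 267500 and 262700 CPM in water libraries, and the groups did not overlap. Of the 11, edgeR and limma-voom called 0, DESeq2 called 4 lower (Lyz1, Itln1, Defa24 and Defa30), 4 were under an unadjusted p of 0.05, and 10 estimates were below 0. Over all genes DESeq2 called 4.84%, and 15.7% were under that unadjusted p by edgeR. Transcripts of crypt base stem cell markers were also present, and which cells held them was not tested. Olfm4, a stem cell glycoprotein, had 2891, 2336, 2244 and 2615 CPM in DSS libraries against 2911, 2408 and 2567 CPM in water libraries. Lgr5 itself had 118, 76.7, 56.7 and 62.4 CPM in DSS libraries against 168, 112 and 102 CPM in water libraries.

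All 35 genes were detected in every library. Raw counts went from 59, for Ccne1 in its lowest library, to 4890, for Cdca7 in its highest. The mean over the 7 libraries lay between 1.39 CPM per kilobase for Fen1 and 44.2 CPM per kilobase for Cdca7, a range of 31.7-fold. The low end is uncertain, since 84.2% of the exon bases of Fen1 are shared with genes on the opposite strand. Ccne1 was next lowest, at 1.56 CPM per kilobase. The median member stood at percentile 59.4 of the genes tested, and 22 of 35 lay above the median gene at 4.03 CPM per kilobase. Together the members took 0.147% of the counts in DSS 4 (95% Wilson interval 0.145 to 0.148, for counting error only), the highest share, and 0.0999% in water 2 (0.0986 to 0.101), the lowest. These are shares of unscaled library totals. After TMM scaling, the summed level was highest in water 1, at 1348 CPM, and lowest in DSS 2, at 1066 CPM.

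**Figure D1:**
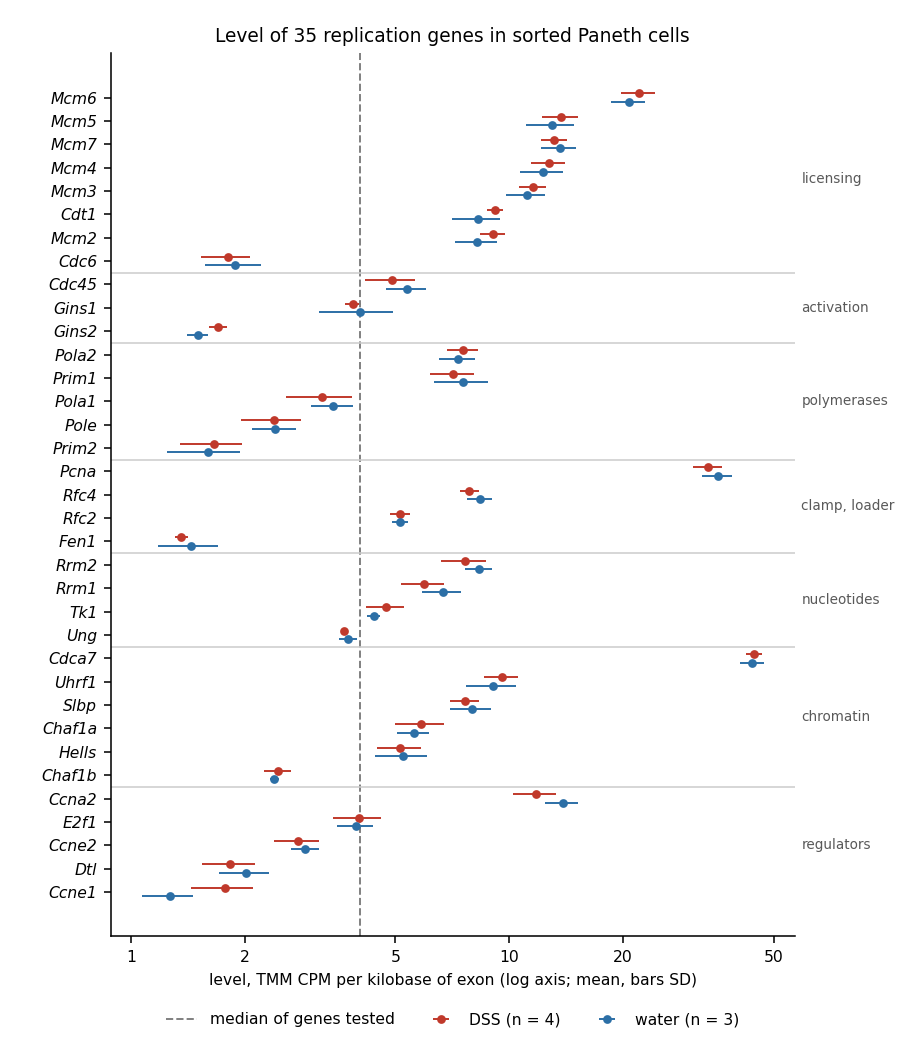
Mean level of each of the 35 genes in CPM per kilobase of exon on a log axis, with SD bars, for DSS (upper point, n = 4) and water (lower point, n = 3), grouped by role. The points of both groups lie close together for nearly every gene, and the genes spread over 31.7-fold. Cdca7 and Pcna are highest, and Fen1, whose level is uncertain, is lowest.

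No member passed the test between DSS and water. edgeR's quasi-likelihood test with Benjamini-Hochberg adjustment called 0 of 35 members at an adjusted p of 0.05, in a comparison in which it called 0 of 17449 genes (0%). At an unadjusted p under 0.05 there was 1 member, Ccne1, of 35, while 2742 of all genes (15.7%) were under it. DESeq2 called 0 members where it called 644 of 13315 genes (4.84%), and limma-voom called 0 members and 0 genes (0%). The lowest adjusted p of a member was 0.258. The members' median log2 change was -0.01, against -0.0015 for all genes, with 17 estimates above 0 and 18 below.

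Of the 35 log2 changes 25 lay within 0.1 of 0, and they ran from -0.23 for Ccna2 to 0.49 for Ccne1. The 95% interval of 34 of 35 members covered 0, and that of 34 of 35 lay within 0.5 of 0 on the log2 scale. The lowest bound of any interval was -0.48, for Ccna2, and the highest was 0.90, for Ccne1. No member had all DSS libraries above all water libraries, as 7.4% of genes did, and none had all of them below, as 7.51% of genes did.

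**Figure D2:**
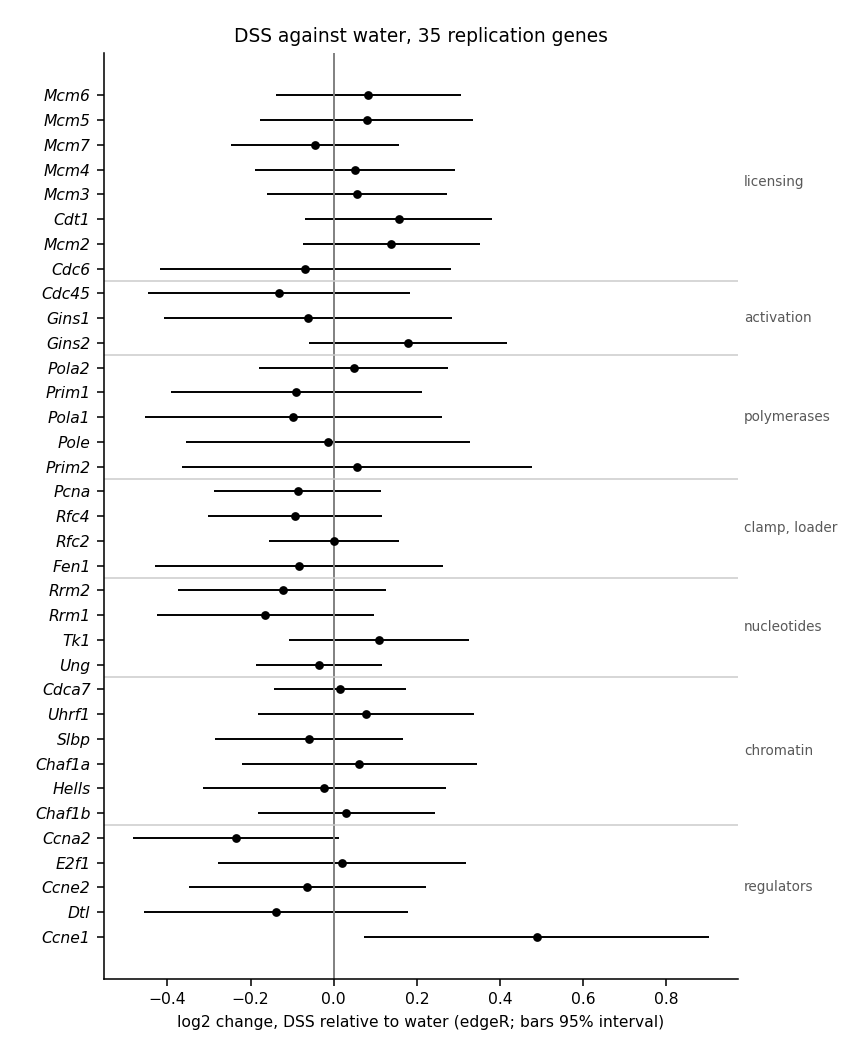
Fitted log2 change of each member, DSS relative to water, as points with 95% intervals, grouped by role. All intervals but that of Ccne1 cross 0, and all but that of Ccne1 stay within 0.5 of 0.

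Among the 8 licensing genes, 6 estimates were above 0 and 2 below, with a median log2 change of 0.07. Mcm6, a subunit of the replicative helicase ring and the highest of the 6 ring subunits per kilobase, had 101, 88.4, 113 and 108 CPM in DSS libraries against 108, 89.3 and 93.1 CPM in water libraries. The groups overlapped, with DSS 2 lowest and DSS 3 highest, and the log2 change was 0.08 ± 0.10 (SE; adjusted p = 0.736 by edgeR). Mcm2, another ring subunit, had 65.1, 56.0, 64.9 and 66.4 CPM in DSS libraries against 65.5, 53.5 and 52.8 CPM in water libraries. Here 3 DSS libraries and water 1 were alike and high, and DSS 2, water 2 and water 3 were low (log2 change 0.14 ± 0.09, edgeR adjusted p = 0.519). The 6 ring subunits, which form 1 complex with 1 copy of each, had levels of 8.71 to 21.4 CPM per kilobase, a range of 2.46-fold. Mcm2, at the low end, has 6956 bases of annotated exon, against 3589 (Mcm4) to 4666 (Mcm6) for the others. The summed level of the 6 subunits was 368 ± 31.0 CPM in DSS libraries (SD, n = 4) and 352 ± 41.6 CPM in water libraries (SD, n = 3).

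Mcm3, Mcm4, Mcm5 and Mcm7, the remaining ring subunits, had log2 changes of -0.04 (Mcm7) to 0.08 (Mcm5). Cdt1, which brings the ring to the origin, had 28.7, 28.4, 27.5 and 30.8 CPM in DSS libraries against 29.0, 27.1 and 21.7 CPM in water libraries. Water 3 alone stood low, and the log2 change was 0.16 ± 0.10 (edgeR adjusted p = 0.487). Cdc6, the loading ATPase, was far less abundant, with 8.68, 7.92, 9.89 and 11.1 CPM in DSS libraries against 11.2, 8.02 and 10.3 CPM in water libraries. Its groups overlapped over their whole range (log2 change -0.07 ± 0.15, edgeR adjusted p = 0.877).

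Of the helicase activators, Cdc45, which completes the active helicase, averaged 11.0 ± 1.68 CPM in DSS libraries and 12.1 ± 1.47 CPM in water libraries (SD, n = 4 and n = 3). Gins1, a GINS subunit, averaged 5.87 ± 0.283 CPM in DSS libraries and 6.12 ± 1.35 CPM in water libraries. Gins2, another GINS subunit, had 7.14, 7.07, 6.39 and 7.29 CPM in DSS libraries against 6.6, 5.86 and 6.00 CPM in water libraries. Only DSS 3 of the DSS libraries fell below water 1, and the log2 change was 0.18 ± 0.11 (edgeR adjusted p = 0.451). Of the exon bases of Gins2, 67.3% are shared with Gse1 on the opposite strand, and the counting was given no strand option, so its reads cannot be told apart from those of Gse1.

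The polymerase and primase genes were Pola1 and Pola2 (polymerase alpha), Prim1 and Prim2 (the primase that lays the RNA primer) and Pole (the leading strand polymerase). Their log2 changes were between -0.10 and 0.06 and none passed the test. DSS 2 was lowest for Pola1, at 20.4 CPM, and for Pole, at 19.6 CPM, while the other DSS libraries had 29.1 to 33.4 CPM of Pola1 and 27.6 to 30.5 CPM of Pole. In water libraries Pola1 had 34.0, 26.4 and 30.0 CPM and Pole 30.9, 25.2 and 24.4 CPM. Per kilobase the subunits of polymerase alpha differed, with Pola2 at 7.56 and 7.31 CPM per kilobase in DSS and water libraries and Pola1 at 3.20 and 3.42 CPM per kilobase. The annotated exons of Pola2 hold 2872 bases and those of Pola1 8813.

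Pcna, the ring that tethers polymerases to DNA, was the second most abundant member per kilobase. It had 79.6, 71.4, 82.3 and 88.7 CPM in DSS libraries against 93.4, 77.6 and 85.3 CPM in water libraries. The groups overlapped (log2 change -0.09 ± 0.09, edgeR adjusted p = 0.694). The annotation also names the pseudogenes Pcna-ps1 and Pcna-ps2, with which reads may be shared. Rfc2 and Rfc4, of the clamp loader, had log2 changes of 0.00 ± 0.07 and -0.09 ± 0.09. Fen1, the nuclease that trims Okazaki fragments, was the lowest member per kilobase, with 3.17, 3.45, 3.20 and 3.34 CPM in DSS libraries against 4.06, 3.60 and 2.81 CPM in water libraries. Water libraries held both its highest and its lowest value, and its level is uncertain, since 84.2% of its exon bases are shared with Tmem258 and Gm10143 on the opposite strand.

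In nucleotide supply, Rrm1, the large subunit of ribonucleotide reductase, had 67.6, 54.5, 64.8 and 75.4 CPM in DSS libraries against 83.2, 66.2 and 71.0 CPM in water libraries. DSS 2 was lowest and water 1 highest (log2 change -0.16 ± 0.12, edgeR adjusted p = 0.533). Rrm2, its small and cell cycle-regulated subunit, had 20.2, 19.1, 19.9 and 25.4 CPM in DSS libraries against 24.9, 23.2 and 21.1 CPM in water libraries. For Rrm2 the DSS libraries 1, 2 and 3 lay below all water libraries and DSS 4 above them (log2 change -0.12 ± 0.11, edgeR adjusted p = 0.642). Tk1, the salvage thymidine kinase, averaged 24.6 ± 2.89 CPM in DSS libraries and 22.8 ± 0.882 CPM in water libraries. Ung, which removes uracil from DNA, was the steadiest member, and its highest library exceeded its lowest by 1.11-fold.

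Among the chromatin genes, Cdca7, a partner of the remodeller Hells and also listed among crypt base stem cell genes, had the highest level per kilobase of all members. It had 147.5, 136, 137 and 148 CPM in DSS libraries against 152, 137 and 133 CPM in water libraries. All 7 libraries lay within 1.14-fold (log2 change 0.02 ± 0.07, edgeR adjusted p = 0.943). Uhrf1, which carries DNA methylation across replication, had 43.7, 34.6, 42.2 and 42.4 CPM in DSS libraries against 44.3, 32.7 and 38.6 CPM in water libraries. DSS 2 and water 2 stood low, and the groups overlapped (log2 change 0.08 ± 0.12, edgeR adjusted p = 0.798). Slbp, which binds the stem loop of replication-dependent histone mRNAs, had 44.2, 44.1, 44.8 and 52.6 CPM in DSS libraries against 53.3, 41.6 and 50.2 CPM in water libraries. DSS 4 stood above the other DSS libraries and level with water 1 (log2 change -0.06 ± 0.10, edgeR adjusted p = 0.824). Chaf1a and Chaf1b, subunits of the histone chaperone CAF-1, and Hells had log2 changes of 0.06, 0.03 and -0.02.

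The regulators held both ends of the range. Ccne1, cyclin E1, which with Cdk2 drives entry into S phase, had 3.70, 4.36, 5.08 and 5.74 CPM in DSS libraries against 3.88, 2.83 and 3.40 CPM in water libraries. All DSS libraries but DSS 1 exceeded all water libraries, and the log2 change of 0.49 ± 0.18 (edgeR adjusted p = 0.258) was the largest of the members. It had 59 to 189 reads a library, the lowest single count of any member, and its groups overlapped. Ccne2, cyclin E2, averaged 9.67 ± 1.33 CPM in DSS libraries and 10.1 ± 0.838 CPM in water libraries (SD, n = 4 and n = 3), with a log2 change of -0.06 ± 0.13.

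Ccna2, cyclin A2, which acts in S phase and again in G2, had 53.5, 45.8, 40.3 and 52.7 CPM in DSS libraries against 62.7, 51.6 and 55.2 CPM in water libraries. DSS 2 and DSS 3 were lowest, and DSS 1 and DSS 4 lay between water 2 and water 3 (log2 change -0.23 ± 0.11, edgeR adjusted p = 0.345). E2f1, the transcription factor of the late G1 programme, had 14.8, 10.9, 11.3 and 13.5 CPM in DSS libraries against 14.0, 11.5 and 11.7 CPM in water libraries. It did not separate the groups (log2 change 0.02 ± 0.13, edgeR adjusted p = 0.961). Dtl, the adaptor that sends Cdt1 to the CRL4 ubiquitin ligase, averaged 25.1 ± 3.97 CPM in DSS libraries and 27.6 ± 4.21 CPM in water libraries.

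Libraries of both groups were high or low for many members at once. Water 1 was the highest library for 19 members and DSS 4 for 10, while DSS 2 was the lowest for 17, water 2 for 8 and water 3 for 7. Of 35 members 33 lay above their own 7-library geometric mean in DSS 4 and 32 did in water 1, against 4 in DSS 2 and 4 in water 2. Summed over the members, the level was 1235, 1066, 1198 and 1308 CPM in DSS libraries against 1348, 1112 and 1166 CPM in water libraries, or 1202 ± 102 and 1208 ± 123 CPM (SD, n = 4 and n = 3). Both groups therefore held a high and a low library.

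**Figure D3:**
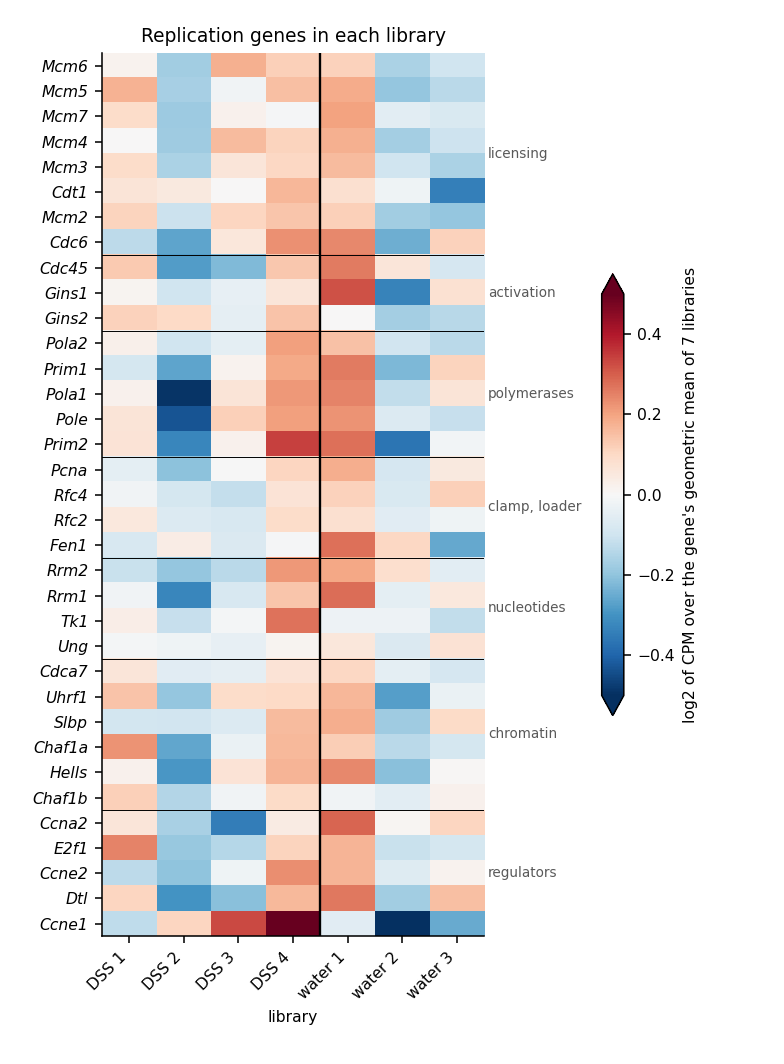
Each row is a member and each column a library, DSS to the left of the line and water to the right, coloured by the log2 of CPM over the gene's geometric mean of the 7 libraries (colours end at 0.5 in either direction). Water 1 and DSS 4 are mostly red, with 32 and 33 of 35 members above their mean, and DSS 2 and water 2 mostly blue, with 4 each.

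Other lists of the cell cycle, chosen with earlier results of these data known, were set beside the members. Of 50 other replication genes edgeR called 0, as did DESeq2 and limma-voom, and 1 was under an unadjusted p of 0.05: Gins3, a GINS subunit, with 4.32, 3.45, 3.88 and 4.95 CPM in DSS libraries against 5.80, 6.05 and 5.33 CPM in water libraries (log2 change -0.46 ± 0.15, edgeR adjusted p = 0.200). Over all genes 15.7% were under an unadjusted p of 0.05. The median log2 change of this list was -0.07, with 15 estimates above 0 and 35 below. Gins3 was 1 of 3 genes of the 50 with all DSS libraries below all water libraries, where 7.51% of all genes had this. Gins2, of the same complex, had a positive estimate with the shared exon bases given above. Gins1 and Gins4, also of GINS, were at -0.06 and -0.08. The differences between these subunits were not tested.

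Of 51 genes of G2 and M phase edgeR called 0, as did DESeq2 and limma-voom, and 9 were under an unadjusted p of 0.05, all with negative estimates, where 15.7% of all genes were under it in either direction. The list's median log2 change was -0.24, with 2 estimates above 0 and 49 below, and 9 genes had all DSS libraries below all water libraries, as 7.51% of all genes did. The list's median log2 of CPM over each gene's geometric mean was 0.033, -0.159, -0.345 and 0.070 in DSS libraries. In water libraries this median was 0.274, 0.072 and 0.027. DSS 1 and DSS 4 thus lay within the range of the water libraries, and DSS 2 and DSS 3 below it. Bub1, a kinase of the spindle checkpoint, had 16.8, 15.3, 12.9 and 18.9 CPM in DSS libraries against 24.4, 20.6 and 19.8 CPM in water libraries (log2 change -0.44 ± 0.13, edgeR adjusted p = 0.193). Top2a, the topoisomerase that untangles chromosomes, had 207, 169, 171 and 224 CPM in DSS libraries against 285, 226 and 226 CPM in water libraries (log2 change -0.35 ± 0.13, edgeR adjusted p = 0.239). Nuf2 and Ndc80, of the outer kinetochore, and Kif11, a spindle motor, were at -0.39, -0.39 and -0.38, none called. Mki67, the proliferation antigen Ki-67, had 254, 198, 197 and 278 CPM in DSS libraries against 333, 243 and 259 CPM in water libraries, and its groups overlapped (log2 change -0.27 ± 0.15, edgeR adjusted p = 0.437). Cdk1, the mitotic kinase, was at -0.18 ± 0.10. Per kilobase Mki67 stood at percentile 89.5 and Top2a at percentile 89 of the genes tested, so transcripts of both the replication and the mitotic programme were present in every sort, DSS and water.

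The G2 and M phase genes summed to 2272, 2013, 1816 and 2367 CPM in DSS libraries against 2705, 2279 and 2267 CPM in water libraries. The ratio of the members' sum to this sum, which does not depend on how libraries are scaled, was 0.543, 0.529, 0.660 and 0.552 in DSS libraries against 0.498, 0.488 and 0.514 in water libraries. All 4 DSS libraries thus lay above all 3 water libraries, at 0.571 ± 0.0599 and 0.5 ± 0.0131 (SD, n = 4 and n = 3). The ratio was chosen after its parts had been seen, so it is given as a description with no test.

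**Figure D4:**
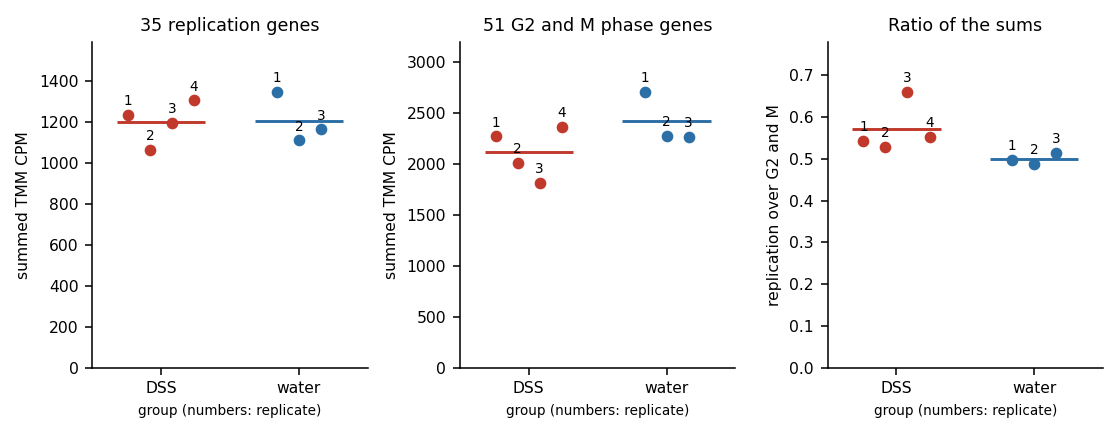
Summed CPM of the 35 members (left), of 51 G2 and M phase genes (middle) and their ratio (right) for each library, DSS left of water, with the replicate number beside each point and the group mean as a line. The sums of the members overlap between groups, and the ratios of DSS libraries, 0.529 to 0.660, all lie above those of water libraries, 0.488 to 0.514.

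The genes that time entry into S phase were also compared. The list of 17 genes held G1 cyclins, their kinases, other E2Fs, Tfdp1, Tfdp2, Myc and Mycl. Of these 17, edgeR and limma-voom called 0, DESeq2 called 1, and 4 were under an unadjusted p of 0.05, all with positive estimates (list median 0.12). Over all genes 15.7% were under that p, and DESeq2 called 4.84%. Myc, the growth factor-induced transcription factor and the gene that DESeq2 called, had 78.8, 82.3, 80.1 and 92.8 CPM in DSS libraries against 71.6, 67.6 and 58.0 CPM in water libraries, so that the groups did not overlap (log2 change 0.35 ± 0.09, edgeR adjusted p = 0.157, DESeq2 adjusted p = 0.0217). Mycl, a Myc paralog, was at 0.34 ± 0.12, Ccnd1, cyclin D1, at 0.23 ± 0.09 and E2f4, an E2F mostly of repressive complexes, at 0.13 ± 0.05. A further list of 12 genes held CDK inhibitors, pocket proteins and the cyclins Ccng1 and Ccng2, and 11 of the 12 were tested. Of these edgeR and limma-voom called 0, DESeq2 called 1, and 2 were under an unadjusted p of 0.05, beside the same shares of all genes. Ccng1, cyclin G1, a p53 target and the gene that DESeq2 called, had 116, 89.3, 98.8 and 112 CPM in DSS libraries against 152, 122 and 168 CPM in water libraries (log2 change -0.50 ± 0.12, edgeR adjusted p = 0.143, DESeq2 adjusted p = 0.00592). Cdkn1b, the inhibitor p27, was at -0.15 ± 0.06.

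Markers of other cells differed between libraries. The crypt base stem cell markers, without Cdca7, summed to 5313, 4438, 4290 and 4711 CPM in DSS libraries against 5340, 4465 and 4532 CPM in water libraries, so water 1 and DSS 1 were highest and DSS 3 lowest. Not all of these markers followed the sum: Axin2, a Wnt target named after its values were seen and the 1 gene of the list that DESeq2 called, had 203, 208, 190 and 205 CPM in DSS libraries against 182, 169 and 147 CPM in water libraries (log2 change 0.28 ± 0.08, edgeR adjusted p = 0.187, DESeq2 adjusted p = 0.0404). Ascl2, a stem cell transcription factor, also had all DSS libraries above all water libraries (log2 change 0.37 ± 0.11, edgeR adjusted p = 0.190), while Lgr5 was at -0.70 ± 0.26 (edgeR adjusted p = 0.247). The tuft cell markers, without Cd24a, summed to 607, 1136, 1152 and 579 CPM in DSS libraries against 607, 686 and 614 CPM in water libraries, with Dclk1, a tuft cell kinase, at 276 CPM in DSS 2 and 285 CPM in DSS 3. All 10 of these tuft markers had estimates above 0, and DESeq2 called 1, the tuft cell transcription factor Pou2f3, named after its values were seen (log2 change 0.72 ± 0.23, edgeR adjusted p = 0.207, DESeq2 adjusted p = 0.0287). Over all genes DESeq2 called 4.84%. DSS 2 was the lowest library for 17 of 35 members, while DSS 3, with the higher tuft sum, was the lowest for 3. The sum of the G2 and M phase genes was lowest in DSS 3, at 1816 CPM, and next in DSS 2, at 2013 CPM. The median log2 change of the members was 0.07 without DSS 2 and DSS 3, an alternative chosen after seeing the data. Enteroendocrine markers, without Reg4, summed to 439 to 1176 CPM in DSS libraries and 66.9 to 2367 CPM in water libraries, with Chga, a granule protein, at 6.33 CPM in water 1. Water 1 was the highest library for 19 of 35 members, while DSS 4, the highest for 10, had an enteroendocrine sum of 1172 CPM.

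Goblet markers summed to 8297 to 13560 CPM in DSS libraries and 10290 to 11380 CPM in water libraries, with Muc2, the gel mucin, at 1946 to 3508 and 2591 to 4106 CPM. Of 9 goblet markers DESeq2 called 2, both named after their values were seen, and edgeR and limma-voom called 0, with 2 under an unadjusted p of 0.05 by edgeR. Over all genes DESeq2 called 4.84%, and 15.7% were under that unadjusted p. Clca1, a secreted goblet cell protein, had 193, 755, 210.3 and 585 CPM in DSS libraries against 74.4, 104 and 114 CPM in water libraries (log2 change 2.16 ± 0.49, edgeR adjusted p = 0.138, DESeq2 adjusted p = 0.00824). Agr2, a disulfide isomerase of mucus-secreting cells, had all DSS libraries below all water libraries (log2 change -0.51 ± 0.18, edgeR adjusted p = 0.230, DESeq2 adjusted p = 0.0428). Enterocyte markers summed to 1121 to 1282 CPM in DSS libraries and 1136 to 1275 CPM in water libraries, with Alpi, a brush border phosphatase, at 5.38 to 8.90 and 4.23 to 7.63 CPM. White blood cell markers, without Lyz2, which Paneth cells also express, summed to 9.47 to 19.2 CPM in DSS libraries and 9.44 to 15.1 CPM in water libraries. Most of this was Ptprc (CD45), at 7.86 to 16.8 and 8.10 to 13.5 CPM, and Cd3g and S100a8 were at 0 in all libraries. Endothelial, mesenchymal and erythroid markers summed to 1.37 to 3.68 CPM in DSS libraries and 0.446 to 1.64 CPM in water libraries, with Pecam1 at 0.589 to 1.65 and 0.223 to 1.09 CPM. The part of any of these cells, or of the lower Paneth marker sums in DSS libraries, in the values of the members and of the G2 and M phase genes was not tested.

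Age and lane, as the labels and file names give them, were not balanced between the groups. All water libraries and DSS 4 were of lane 6, DSS 1 and DSS 3 were of lane 8, and DSS 2 was marked as merged. The part of lane or merging in the low values of DSS 2 was not tested. With only 10-week-old mice (DSS 2, DSS 3 and DSS 4 against water 3) the members' median log2 change was 0.02 against 0.00 for all genes, and water 3 was then assumed to vary as the DSS libraries do. With only libraries of lane 6 (DSS 4 against the 3 water libraries) it was 0.13 against -0.01 for all genes, and DSS 4 was then assumed to vary as the water libraries do. No member was called in either, each with 1 library in an arm. Each day of RNA isolation held libraries of 1 group only, so isolation day and treatment cannot be told apart.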

How the data were processed

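Paneth cells had been sorted from small-intestinal crypts and their polyadenylated RNA sequenced, in 4 DSS and 3 water libraries. The deposited values are raw counts per gene, made by the authors with featureCounts 1.5.3 per the file headers (exons summed by gene, GENCODE M15, reads given to the gene of largest overlap with at least 0.8 of the read overlapping, primary alignments only, no strand option, duplicates marked but not dropped). STAR 2.5.3a, featureCounts 1.5.2, DESeq2 and build mm10 are named in the submitters' processing notes. Reads of overlapping genes on opposite strands therefore cannot be told apart.

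From the deposited counts, TMM-scaled CPM were computed, and edgeR 4.0.16 (R 4.3.3; filterByExpr, quasi-likelihood test without covariates, Benjamini-Hochberg over 17449 genes, threshold 0.05) compared DSS with water. The procedure was tested on simulated data. Symbols came from GENCODE M21 by identifier, for 52403 of 52550 genes. Replicate numbers follow accession order and pair nothing. No 2 libraries agreed within sampling noise (lowest chi-square per degree of freedom 14.5). Intervals of fitted changes are 95% intervals from the model. With 23175708 to 32451653 reads a library, 3 counts correspond to 0.0924 to 0.129 CPM before TMM scaling.

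The members and gene lists were chosen with earlier results of these data known. All 35 members are named. Values in every library are given for 10 members picked by role, the 6 of smallest p, and the highest and lowest per kilobase. From each other cell cycle list up to 4 genes of smallest p were named, with Mki67, Top2a and Cdk1. Alternatives were RLE scaling, library totals only, TMM without granule genes, 2 other filters, DESeq2 1.42.0, limma-voom 3.58.1 with quality weights, age as a covariate, subsets by age and lane, and each library left out.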

Additional observations from a re-analysis of the deposited data

Results flagged for a closer look

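In 3 of 37 series of CPM values tested over the 4 DSS libraries, the most distant library stood apart from the rest by more of the group's range than Dixon's limit for 4 samples, and chance gives about 5% of such series. For Mcm2 the gap took 0.859 of the range, with DSS 2 at 56.0 CPM below the other DSS libraries at 64.9 to 66.4 CPM. For Uhrf1 it took 0.835 of the range, with DSS 2 at 34.6 CPM below the others at 42.2 to 43.7 CPM. For Slbp it took 0.913 of the range, with DSS 4 at 52.6 CPM above the others at 44.1 to 44.8 CPM. Groups of 3 water libraries are not tested in this way.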

How the results depend on the processing

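No member was called under any alternative run, and the members' median log2 change, -0.01, lay between -0.06 and 0.07 with each library left out. Scaling by library totals only shifted the median of all genes by 0.24 on the log2 scale, and the members' median to 0.23. Relative to all genes the members' median thus stayed near 0. Under that scaling 2135 genes were called, of which 2107 were higher. There 8 members had all DSS libraries above all water libraries, and the share of all genes that did so was not counted. With lane 6 only, the members' median was 0.13 and 9 genes were called. Genes called over the whole table numbered 0 by edgeR (2742 at an unadjusted p under 0.05), 441 with no low-count filter, 644 by DESeq2 and 0 to 303 with a library left out, 303 without DSS 1 and 9 without DSS 4. With a library left out, 0 to 4 members lay wholly higher in DSS (4 without water 1) and 0 to 4 wholly lower (4 without water 2). Groups separate more easily with fewer libraries, and the share of all genes that did so was not counted for these subsets. No paired analysis was possible because replicate numbers follow accession order.

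Estimates near 0 changed sign in 28 cases, none of them called under either setting. With library totals only, Pcna was at 0.152, Rrm2 at 0.116, Cdc6 at 0.173, Slbp at 0.178, Rrm1 at 0.073 and Fen1 at 0.153. With lane 6 only, Pcna was at 0.047, Rrm2 at 0.132, Cdc6 at 0.168, Slbp at 0.111 and Rrm1 at 0.030, and with 10-week-old mice only Rrm2 was at 0.029 and Fen1 at 0.245. With each library left out, the lowest and highest values were -0.197 and 0.035 for Cdc6, -0.061 and 0.114 for E2f1, -0.029 and 0.189 for Uhrf1, -0.158 and 0.015 for Slbp, -0.219 and 0.040 for Fen1, and -0.021 and 0.073 for Cdca7. The highest of each came without water 1. Without DSS 2 and DSS 3, chosen after seeing the data, Cdc6 was at 0.010 and Slbp at 0.001. The cause was not tested. Counting error limits Ccne1 and Fen1 most, with 59 to 189 and 67 to 117 reads a library.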
